A study of Mus musculus with 12 samples.

Results

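The mitochondrial carriers of family Slc25 were described here by the H3K27ac at their genes in mouse microglia, the resident macrophages of the brain. Members were the genes whose symbol in the deposited table begins with Slc25a and a digit: 44 of the 16092 genes named there. Described are 43 of them, with 145 of the table's 67822 windows of 1000 bp, all within 100 kb of the transcription start site (TSS) to which the table gives them. H3K27ac, acetylation of lysine 27 on histone H3, is found at active promoters and enhancers, and was measured by chromatin immunoprecipitation and sequencing (ChIP-seq). The groups were wild-type mice on the C57BL/6N background and Cias1-knockout mice, named Nlrp3-/- and credited to Millennium Pharmaceuticals. Each genotype had 3 H3K27ac and 3 input libraries, the input being sonicated chromatin that was not immunoprecipitated. The cells were CD11b-positive cells of the forebrain, taken with magnetic beads. The labels used here leave out the age and sex of the mice, the strain background of the knockout, and whether the 3 libraries of a group came from separate mice, so p-values measure the spread between these libraries, which may be technical. The genotypes were set against each other in a study whose title names glutaminolysis in microglia. In bulk chromatin, fewer cells with a mark and less of the mark per cell cannot be told apart.

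Most Slc25 proteins sit in the inner mitochondrial membrane and exchange metabolites between the cytosol and the matrix. Among their loads are ADP and ATP, phosphate, citrate, ketoglutarate, aspartate and glutamate, acylcarnitines, iron, and the cofactors that matrix enzymes need. Glutamine that enters mitochondria is turned into glutamate and ketoglutarate, and carriers of these acids connect that pathway to the cytosol. H3K27ac is a property of chromatin and is neither the transcript nor the transport activity.

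Sequencing gave 3726550 to 5028129 tags per H3K27ac library, with 39.1% to 46.1% of them inside the windows, and 3287009 to 6961590 tags per input library, with 8.31% to 9.32% inside. Levels are given as CPM, the usual scaling of tag counts to all tags of a library. The promoter of the targeted gene, Nlrp3, held 318, 271 and 314 tags in the wild-type H3K27ac libraries and 18, 20 and 59 in the knockout ones. Promoters of Y-linked genes had 0 tags in H3K27ac and input of wild-type replicate 1. The other 5 H3K27ac libraries had 183 to 239 tags there. Wild-type replicate 1 thus looked female and was not a repeat of the same mice as replicates 2 and 3. Microglia markers averaged 19.5 to 23.5 CPM per promoter in the wild-type libraries and 20.2 to 21.2 CPM in the knockout ones, over the 9 of 10 with a promoter window. Markers of other cells were at 0 to 3.49 CPM over the 1 astrocyte, 2 oligodendrocyte and 3 endothelial genes with one. The oligodendrocyte promoters had 1.83 to 3.49 CPM over the H3K27ac libraries and 0.503 to 1.2 CPM in input. For the endothelial promoters these ranges were 1.52 to 2.75 and 0.156 to 0.71 CPM. Such levels do not show other cells to be absent. The listed markers of neurons and of monocytes and neutrophils had 0 promoter windows.

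Of the 3 promoters printed here, the first is among the 5 highest in wild type, and the other two belong to ADP/ATP carriers whose H3K27ac differed widely. Slc25a17 is the peroxisomal member, a carrier of nucleotides and cofactors, and Slc25a5 and Slc25a4 encode ADP/ATP carriers. The sequences are the 150 bases before the start site from RefSeq (GRCm38.p6, the assembly of mm10), 5′ to 3′ on the gene's strand, and lie in no RefSeq gene. They come from chr15:81360766-81360915 (minus strand), chrX:36795447-36795596 (plus strand) and chr8:46211063-46211212 (minus strand). Capitals mark CpG dinucleotides.
Slc25a17: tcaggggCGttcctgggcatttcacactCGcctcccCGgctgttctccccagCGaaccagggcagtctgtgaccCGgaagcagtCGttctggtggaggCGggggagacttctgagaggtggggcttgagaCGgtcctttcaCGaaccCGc
Slc25a5: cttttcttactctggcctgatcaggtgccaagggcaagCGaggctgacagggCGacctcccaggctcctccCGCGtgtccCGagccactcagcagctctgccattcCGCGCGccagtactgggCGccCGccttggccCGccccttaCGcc
Slc25a4: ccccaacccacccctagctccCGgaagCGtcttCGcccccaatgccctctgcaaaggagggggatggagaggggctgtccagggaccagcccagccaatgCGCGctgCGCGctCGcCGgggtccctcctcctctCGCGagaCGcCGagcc

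The stretches hold 10, 12 and 13 CpG. RefSeq promoters of 300 bases, from 250 before to 50 after the start, were matched for 31 members with a promoter window. These held a median of 19 CpG, from 1 (Slc25a34) to 51 (Slc25a15), and the 8921 promoters of all genes matched in the same way held a median of 21. CpG number and wild-type promoter CPM had a Spearman's rho of 0.23 across the 31 members and 0.15 across all 8921 genes, a description across genes that share the libraries. Short letter motifs were searched on both strands in these 300 bases. GGGCGG, the GC box of SP1, was in 28 of 31 members (90.3%) and in 67.2% of all promoters. CCGGAAG, an ETS core, was in 6 (19.4%) against 18.9%, among them Slc25a17 and Slc25a4 above, and CACGTG, an E-box, in 5 (16.1%) against 10.6%. The YY1 letters AAGATGGCG were in Slc25a3 alone (3.23% against 3.31%) and the ERR letters AAGGTCA in Slc25a34 alone (3.23% against 2.78%). The NRF1 letters GCATGCGC were in 0 of 31 members and in 5.82% of all promoters. The GC box can overlap other GC-rich letters, and a match is not a bound site.

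Of the 145 windows, 107 lay in the site lists of both genotypes, 24 only in that of wild type and 14 only in that of the knockout. By the table's annotation 44 were at promoters, 48 in introns and 42 intergenic. The centre of 32 lay inside another RefSeq gene. The number of windows per member ran from 1 (12 members) to 21 (Slc25a33, a pyrimidine nucleotide carrier), with a median of 2. Because sums grow with the number of windows, levels are compared between genes only in the single 1 kb window nearest the TSS. Such a window within 1 kb of the TSS was there for 38 members. The table gives Slc25a18, Slc25a31, Slc25a37, Slc25a43 and Slc25a54 only windows farther away.

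H3K27ac at the carrier promoters ran from no tags in wild type to a level above 94.5% of all gene promoters. The median over the 38 promoters was 5.69 CPM in wild type and 4.20 CPM in the knockout, against 5.71 and 5.78 CPM over 11591 gene promoters. The median input at the same 38 windows was 0.690 and 0.622 CPM. H3K27ac exceeded input at 24 of 38 promoters in wild type (63.2%) and at 27 in the knockout (71.1%) in edgeR's quasi-likelihood test scaled to total tags, with adjusted p under 0.05 and no filter on low counts. Over all gene promoters these shares were 70.6% and 73.9%. Over all member windows, 76 of 145 (52.4%) were above input in wild type and 81 (55.9%) in the knockout, against 52.5% and 55.8% of all windows. With the usual filter on low counts, 67 of 68 member windows were above input in wild type and 65 of 65 in the knockout, against 98.6% and 99% of all windows tested, but a window passed that filter mostly through its H3K27ac tags, so these shares carry no weight.

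**Figure D1:**
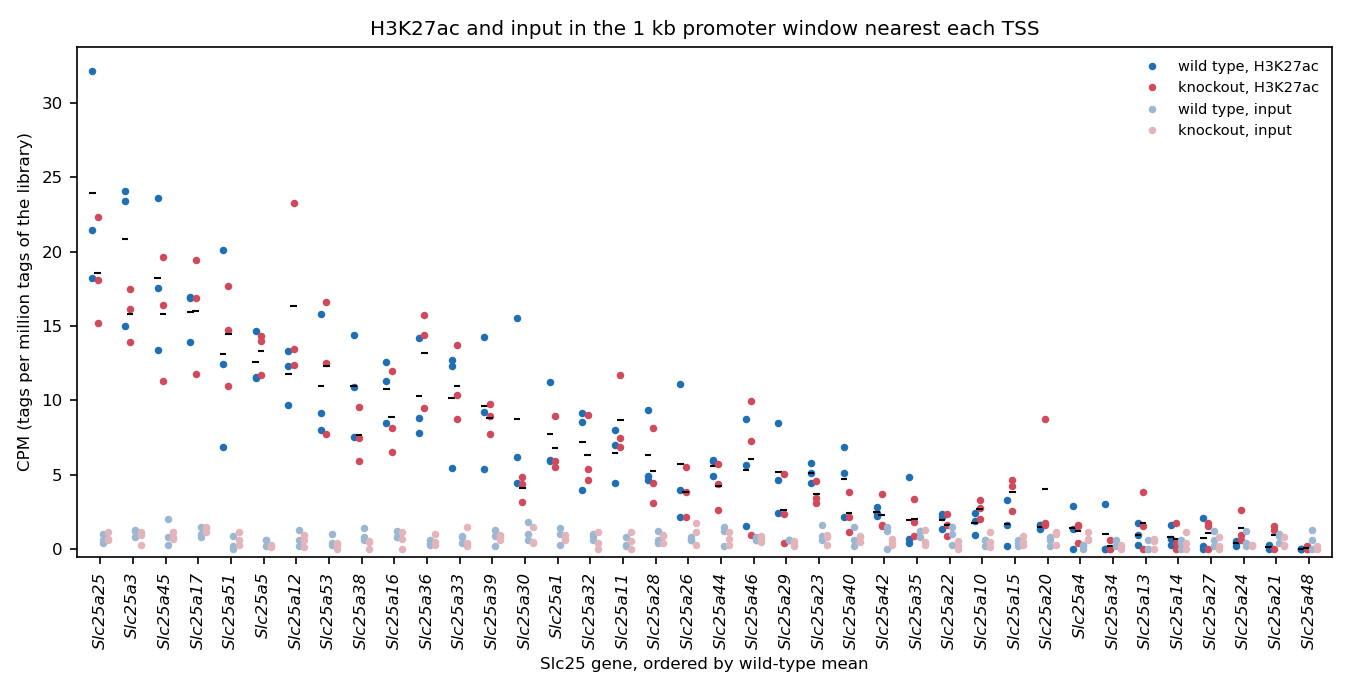
H3K27ac and input in the promoter window nearest the TSS of 38 Slc25 genes, in CPM on a linear axis, 1 point per library and a black bar for the mean of 3 H3K27ac libraries. Levels fall from Slc25a25 at 23.9 CPM in wild type to Slc25a48 at 0, and input stays low throughout.

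The highest wild-type promoter was that of Slc25a25, a calcium-regulated ATP-Mg/phosphate carrier, with 80, 82 and 136 tags, or 23.9 ± 7.26 CPM (mean ± SD, n = 3, as for all levels), above 94.5% of gene promoters. Its window also lies in Naif1, so the signal cannot be given to 1 of the genes. Slc25a3, the phosphate carrier that feeds ATP synthase, had 20.8 ± 5.03 CPM. Slc25a45, a carrier linked to methylated amino acids, had 18.2 ± 5.13 CPM, and Slc25a17 had 15.9 ± 1.72 CPM. Slc25a51, the NAD carrier, had 13.1 ± 6.66 CPM. Neighbours in this order differed by less than the larger of their SDs. At the bottom, Slc25a48, a choline carrier, had 0 tags in each wild-type library, where a count of 0 allows up to 3 tags or 0.668 to 0.805 CPM, and 0, 0 and 1 tags in the knockout. It was called below input in wild type (adjusted p = 0.0333 in edgeR's quasi-likelihood test). This was 1 of 38 member promoters (2.63%), against 0.76% of all gene promoters. Input at Slc25a48, at 0.627 ± 0.636 CPM, was however no higher than the limit for a count of 0. Slc25a21, the oxoadipate carrier, had 1, 1 and 0 tags in a window centred 897 bp past its TSS, and Slc25a24, another ATP-Mg/phosphate carrier, had 2, 2 and 1.

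Levels also differed between carriers of like substrates. Slc25a5 held 43, 66 and 49 tags in wild type (12.6 ± 1.81 CPM), and Slc25a4, the ADP/ATP carrier of heart and muscle, held 5, 13 and 0 (1.41 ± 1.45 CPM). The ranges did not overlap. Each gene has another window within 1 kb that was above input in both genotypes. That of Slc25a4, 403 bp past the TSS, held 12, 21 and 5 tags in wild type. That of Slc25a5, 818 bp past the TSS, held 89, 85 and 91. The promoters of 300 bases hold 18 CpG for Slc25a5 and 25 for Slc25a4. Slc25a12 and Slc25a13 both encode aspartate/glutamate carriers. Slc25a12 held 46, 60 and 41 tags (11.8 ± 1.90 CPM) and Slc25a13 held 1, 8 and 4 (0.998 ± 0.758 CPM), again without overlap. Slc25a28 encodes a mitoferrin, an importer of iron, and its promoter held 35, 21 and 21 tags. Slc25a37, the other mitoferrin gene, has no promoter window in the table, so the pair cannot be compared. Its 2 windows, 43365 and 46711 bp past the TSS, together held 1, 1 and 0 tags.

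By substrate class, the 9 promoters of nucleotide and phosphate carriers had a median of 10.3 CPM in wild type and 13.2 CPM in knockout libraries, with 7 of 9 above input in both genotypes. Both medians are the value of Slc25a36, whose genotypes overlapped, and the median log2 fold change per gene of the class was -0.06. The 7 cofactor carriers had a median of 7.24 and 6.36 CPM, with 6 of 7 above input in each genotype. In this nearest window Slc25a40 was above input in wild type alone and Slc25a42 in the knockout alone, so that 5 were above input in both. Another window of Slc25a42, 529 bp upstream, was above input in both genotypes. The 11 carriers of amino and keto acids had 5.20 and 3.83 CPM, with 6 above input in wild type and 8 in the knockout. Slc25a15, counted here in the knockout alone, has another window, 6 bp upstream, that was above input in both genotypes. The 8 carriers of fatty acids, iron and other loads had 3.65 and 4.64 CPM, with 4 and 5 above input. Of the 3 uncoupling-like carriers only Slc25a30 was above input, in both genotypes, at 8.76 ± 5.96 and 4.16 ± 0.874 CPM. The difference between 6 and 8, or between 4 and 5, promoters passing in the 2 genotypes is not a test of the genotypes, and neither are the class medians.

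Knockout and wild type were compared on the summed windows of each gene with edgeR's quasi-likelihood test and Benjamini-Hochberg adjustment over all 12148 genes that passed the count filter, with a call at adjusted p under 0.05. None of the 34 carrier genes tested was called: 0 passed in edgeR's quasi-likelihood test and 0 in DESeq2, where 0.206% of all genes were called by the former. An unadjusted p under 0.05 was reached by 1 of 34 (2.94%; Slc25a34), against 5.77% of all genes. The 3 libraries of each genotype did not overlap in CPM for 2 of 34 (5.88%; Slc25a12 and Slc25a15), against 9.63% of all genes. Neither share stood above the background. The median log2 fold change of the 34 was -0.10, from -1.03 to 0.62, with 22 below 0 and 12 above, beside a median of 0.0013 over all genes, of which 6048 of 12148 were below 0. In 1 fit of all 12 libraries that set H3K27ac over input between genotypes, the median of all genes was 0.19 and that of the members 0.17, with 0 calls. The other 9 members (Slc25a13, Slc25a14, Slc25a20, Slc25a24, Slc25a27, Slc25a31, Slc25a37, Slc25a43 and Slc25a48) had too few tags for the filter.

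**Figure D2:**
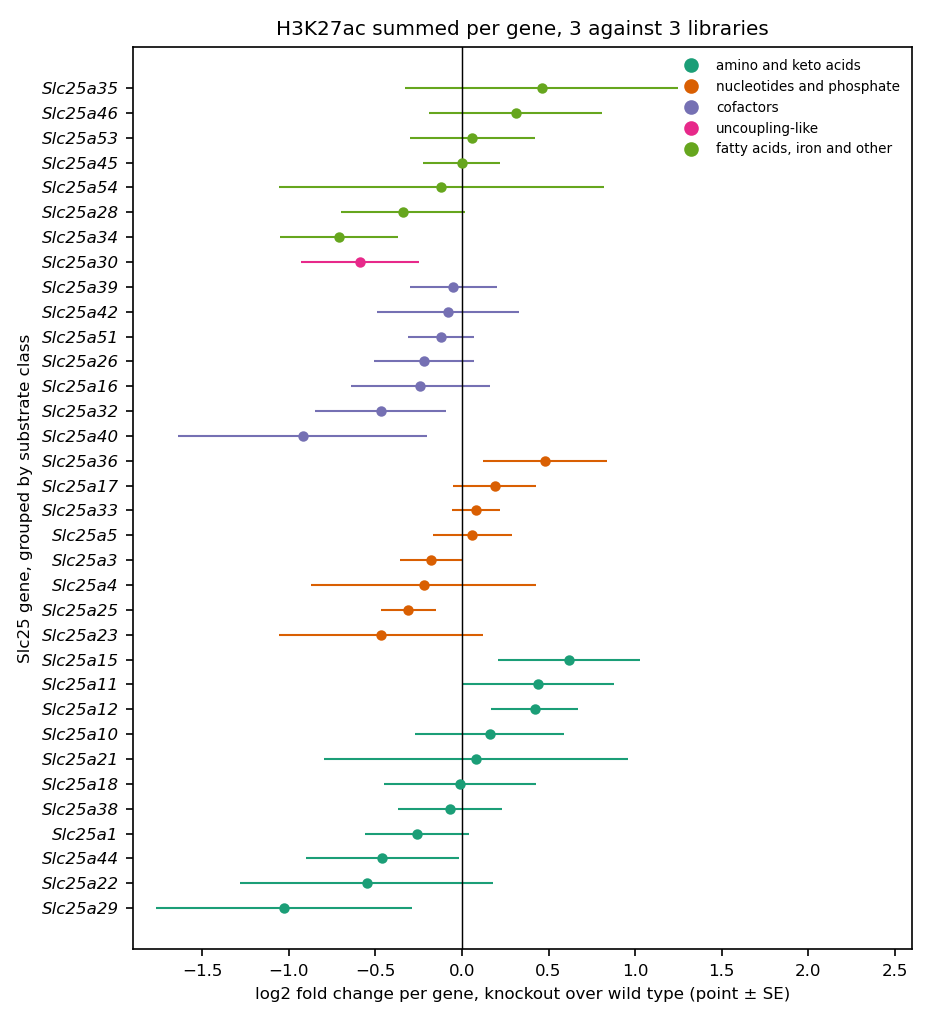
Log2 fold change of summed H3K27ac, knockout over wild type, for the 34 Slc25 genes tested, grouped by substrate class, with points for the estimate and bars for its SE. Estimates run from -1.03 to 0.62 with an adjusted p under 0.05 for 0 genes. The 7 cofactor carriers lie left of 0 in this fit, where 6048 of all 12148 genes do. With input in the fit 4 of 7 do, and 4567 of all 12468 genes.

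Input chromatin alone was compared in the same way. Of the 15 members with enough input tags to test, 0 were called in edgeR's quasi-likelihood test and 0 in DESeq2, where 0.2% of all genes were called by the former. An unadjusted p under 0.05 was reached by 1 (6.67%), near the 5.28% of all genes tested on input. It was Slc25a4, with more input tags in the knockout (log2 fold change 1.16, 2.57 ± 0.165 against 1.25 ± 0.941 CPM). Its adjusted p was 0.898 in edgeR's quasi-likelihood test.

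On single windows 0 of the 89 member windows tested were called in edgeR's quasi-likelihood test and 0 in DESeq2, where 0.0595% of all windows were called by the former. At p under 0.05 unadjusted stood 2 of 89 (2.25%), 1 at Slc25a34 and 1 at Slc25a51, and 4.69% of all windows. The genotypes did not overlap in CPM for 3 (3.37%), 1 each at Slc25a5, Slc25a12 and Slc25a44, beside 10.1% of all windows. That of Slc25a5, 7796 bp past its TSS, held 16, 18 and 6 tags in wild type against 31, 24 and 26 in the knockout.

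Cofactor carriers gave 0 calls. All 7 had a negative log2 fold change, from -0.92 to -0.05 with a median of -0.22, but the count fell to 6 of 7 in each fit that left out a replicate except wild-type replicate 2, and to 4 of 7 with input in the fit. Over all genes 6048 of 12148 were below 0 in the main fit and 4567 of 12468 with input in the fit. The count of 4 is thus set against a lower background. Slc25a40, which with Slc25a39 brings glutathione into mitochondria, held 8, 23 and 29 tags in wild type against 10, 6 and 19 in the knockout (-0.92, SE 0.72). Slc25a39 itself held 126, 135 and 122 against 121, 182 and 130 (-0.05, SE 0.25). Slc25a32, linked to folate and FAD, gave -0.47, Slc25a16 and Slc25a42, both tied to coenzyme A, gave -0.24 and -0.08, and Slc25a26, the S-adenosylmethionine carrier, gave -0.22. For the 11 windows of Slc25a51 the value was -0.12 (SE 0.19), and 8 of these lie in the neighbouring gene Shb. Among them the window 58933 bp upstream held 13, 11 and 39 tags against 16, 9 and 0 (-1.55, SE 0.85), and the window 46695 bp upstream held 59, 37 and 54 tags against 46, 32 and 18 (-0.88, adjusted p = 0.998 in edgeR's quasi-likelihood test).

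Carriers of amino and keto acids moved both ways without a call: 5 of the 11 tested were above 0 and 6 below, with a median of -0.01. Slc25a12, which exports aspartate in exchange for glutamate in the malate-aspartate shuttle, held 87, 123 and 104 tags in wild type against 142, 199 and 148 in the knockout. The knockout libraries were all higher in CPM (33.7 ± 5.17 against 25.1 ± 2.07), with a log2 fold change of 0.42 (SE 0.25, adjusted p = 0.915 in edgeR's quasi-likelihood test). Its promoter window (chr2:71367316-71368316) overlapped between genotypes, and an intronic window 13738 bp inside the gene did not, with 5, 16 and 8 tags against 19, 23 and 30. Slc25a15, the ornithine carrier, held 25, 37 and 24 against 55, 53 and 46 (0.62, SE 0.41), also without overlap.

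Slc25a11, the ketoglutarate/malate carrier, held 26, 20 and 34 tags in wild type against 34, 59 and 34 in the knockout (0.44, SE 0.44), and the groups overlapped. Slc25a22, a glutamate carrier, held 10, 14 and 25 against 7, 22 and 10 (-0.55, SE 0.73), with the 2 groups of H3K27ac libraries overlapping, and its promoter was not above input in either genotype. Slc25a18, a second glutamate carrier, held 28, 33 and 44 against 22, 44 and 53 (-0.01, SE 0.44), and its windows lie in Atp6v1e1 and Cecr2. Of its 3 windows 2 were above input in both genotypes, 21856 and 22131 bp past the TSS. Slc25a1, the citrate carrier, gave -0.26 (SE 0.30), and Slc25a10, the dicarboxylate carrier, gave 0.16 (SE 0.43). Slc25a44, a carrier of branched-chain amino acids, gave -0.46 (SE 0.44). Its window 449 bp from the TSS held 11, 20 and 15 tags against 10, 13 and 4, without overlap in CPM and without a call.

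**Figure D3:**
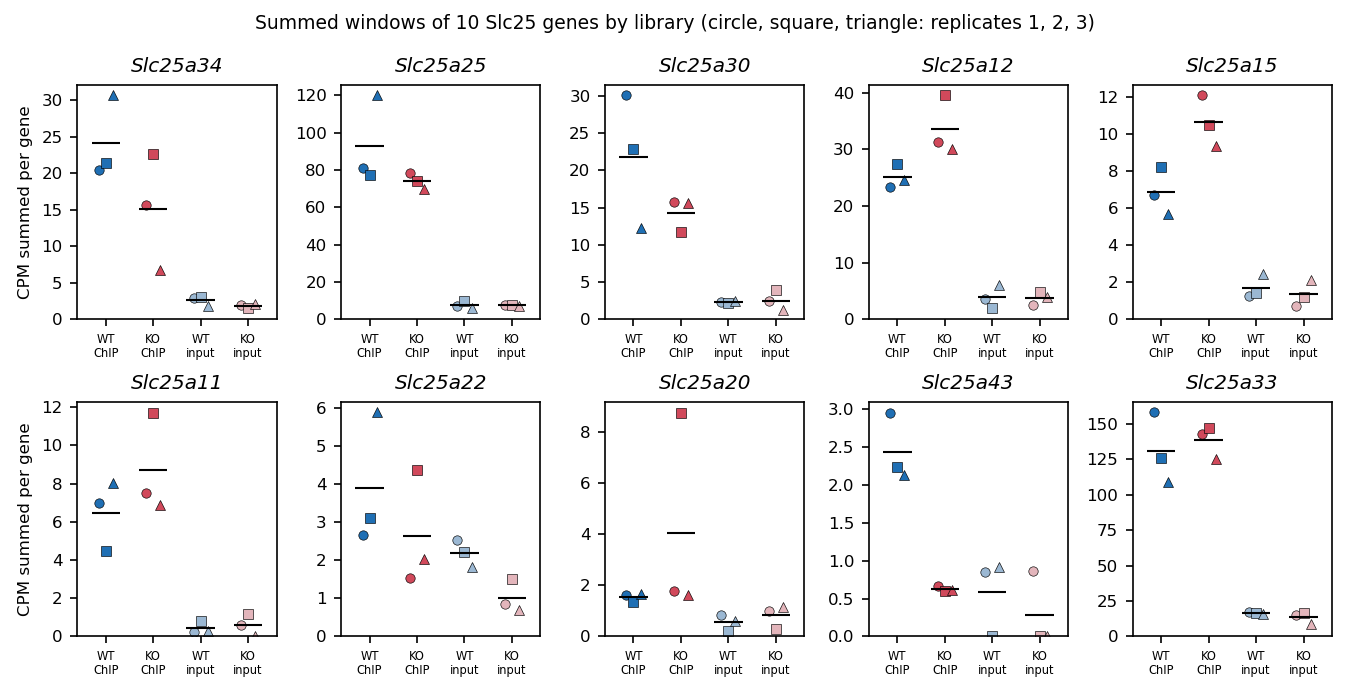
CPM summed over the windows of 10 Slc25 genes, 1 symbol per library with a black bar for the mean of 3, for H3K27ac ChIP and input in wild type (WT) and knockout (KO), each panel on its own linear axis from 0. Knockout values of Slc25a12 and Slc25a15 all lie above the wild-type ones but did not pass the test, and Slc25a20 has 1 high knockout library.

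Nucleotide and phosphate carriers were spread around 0, with 4 of 8 tested above and 4 below and a median of -0.06. Slc25a33 held 590, 564 and 460 tags in wild type against 648, 737 and 614 in the knockout (0.08, SE 0.14). Many of these tags came from far upstream, where assignment to this gene rests on distance alone. The window 82329 bp upstream held 121, 103 and 86 tags against 114, 95 and 105. Its promoter window held 46, 57 and 23 against 47, 69 and 43. Slc25a25 held 302, 347 and 506 against 354, 372 and 344, with wild-type replicate 3 above the other 5 libraries in CPM (-0.31, SE 0.16, adjusted p = 0.892 in edgeR's quasi-likelihood test). Its window 624 bp upstream, which also lies in Naif1, held 96, 121 and 177 tags against 96, 130 and 107 (-0.45, SE 0.24). Slc25a3 gave -0.18 (SE 0.18) and Slc25a17 gave 0.19 (SE 0.24). Of the ADP/ATP carriers, Slc25a4 gave -0.22 (SE 0.65) and Slc25a5 gave 0.06 (SE 0.23).

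Among the remaining carriers Slc25a34, an orphan member, had the smallest p of those described. It held 76, 96 and 130 tags in wild type against 71, 114 and 33 in the knockout (-0.71, SE 0.34, adjusted p = 0.854 in edgeR's quasi-likelihood test). Most tags came from a window 19915 bp upstream in an intron of Plekhm2, with 65, 80 and 109 against 61, 92 and 26, and its own promoter had 0, 0 and 13 against 3, 0 and 0. Slc25a30, an uncoupling-like carrier, held 112, 103 and 52 against 71, 59 and 77 (-0.59, SE 0.34, adjusted p = 0.907 in the same test), and its promoter window 58, 28 and 19 against 20, 16 and 24, with wild-type replicate 1 the highest. Slc25a28 gave -0.34 (SE 0.36). Slc25a20, the carnitine/acylcarnitine carrier of fatty acid oxidation, held 6, 6 and 7 tags against 8, 44 and 8 in its 1 window, so that the higher knockout mean rests on replicate 2.

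Members on the X chromosome were examined because wild-type replicate 1 differed from the rest at Y-linked promoters. Slc25a5 held 148, 169 and 146 tags in wild type against 143, 205 and 211 in the knockout, and Slc25a53 held 68, 50 and 48 against 47, 64 and 89 (0.06, SE 0.36). In CPM wild-type replicate 1 of Slc25a53 stood at 18.2, above 11.1 and 11.3 in replicates 2 and 3, and without it the log2 fold change was 0.30 (SE 0.41). For Slc25a5 it stood at 39.7, against 37.6 and 34.5, and the log2 fold change without it was 0.08. The part of that library's difference in these values was not tested. Slc25a14, an uncoupling-like carrier, held 1, 3 and 7 against 8, 0 and 2. Slc25a43, an orphan carrier, held 11, 10 and 9 tags against 3, 3 and 3 in 1 intronic window (chrX:36744499-36745499), or 2.43 ± 0.451 against 0.623 ± 0.0347 CPM. By library the wild-type values were 2.95, 2.23 and 2.13 CPM, with replicate 1 the highest. The genotypes did not overlap, but the window was too sparse for the filter, and without a filter the log2 fold change of Slc25a43 was -1.91 (SE 1.29, adjusted p = 0.925 in edgeR's quasi-likelihood test). Slc25a24, on chromosome 3 and also too sparse, did not overlap in the other direction (0.406 ± 0.154 against 1.43 ± 1.06 CPM). Without a filter it gave 1.82 (SE 1.65). How often such sparse genes fail to overlap was not counted.

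Related mitochondrial genes were taken from lists chosen with earlier results of these data known. The 5 carriers of the family under other names (Ucp1, Ucp2, Ucp3, Mtch1 and Mtch2) gave 0 calls and a median log2 fold change of 0.07. Of 16 genes tested for other transport across the inner membrane 1 was called, against 0.206% of all genes, on a list not chosen blind to the results. It was Mpc1, a subunit of the pyruvate carrier, at 46.9 ± 14.2 CPM in wild type and 19.3 ± 1.73 in the knockout (-1.26, adjusted p = 0.0224 in edgeR's quasi-likelihood test). The list's median was -0.12. The 3 outer-membrane porins gave 0 calls, with Vdac1 at 0.78 (adjusted p = 0.499). The 11 enzymes tested of the malate-aspartate shuttle and of glutamate and citrate use gave 0 calls and a median of 0.07, from -0.19 to 1.36. At the upper end stood Me2 (adjusted p = 0.239 in edgeR's quasi-likelihood test), with 8.76 ± 5.72 CPM in wild type and 22.4 ± 1.31 in the knockout.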

How the data were processed

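ChIP-seq for H3K27ac and input were measured in 12 mouse libraries, 3 per genotype and kind, grouped by their labels. For each library and 1000 bp window the authors deposited the count of tags, not normalized. Per the file headers they came from HOMER's annotatePeaks.pl on mm10 without adjustment, in windows taken from a directory named ATAC and merged from a list per genotype. The submitters' processing notes name HOMER and DESeq2. The aligner is not given in the sources used here. The normalized table was left aside, as its values are these counts with 1 scaling per library. H3K27ac outside the windows was not measured, and 14856 windows overlap the one before and share its tags.

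Windows within 100 kb of a TSS were summed per named gene. Genotypes were compared with edgeR 4.0.16 in R 4.3.3 (TMM, filterByExpr, quasi-likelihood test, 3 against 3 libraries without covariates), adjusted by Benjamini-Hochberg over all genes or windows tested, with a threshold of 0.05. H3K27ac was set against input with library sizes from all tags. SE was taken as the absolute log2 fold change divided by the root of the F statistic. CPM uses all tags of a library, and no filter. The floor for a count of 0 is 3 tags, for counting error only.

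Of the genes that the rule matched, 1 is not reported here, and counts of members leave it out, while fits and counts over all genes keep it. Members and lists were chosen with earlier results of these data known. Named were the 5 members with the smallest p per gene and per window, the 5 highest and 3 lowest promoters, fixed carriers of glutamate, citrate, energy, iron, carnitine and cofactor transport, and X-linked ones. Others named by value (Slc25a16, Slc25a26, Slc25a32, Slc25a33, Slc25a40, Slc25a42) complete a class or a count. A planned count of protein signatures was not made. Alternatives were DESeq2 1.42.0, other scaling, no filter, promoter or distal windows alone, no overlapping windows, a replicate block, an interaction with input, and leaving out each replicate.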

Additional observations from a re-analysis of the deposited data

How the results depend on the processing

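Over all genes, 25 were called between genotypes. The count was 16 with total-tag scaling, 48 without a filter, 1 with windows within 1 kb of the TSS, 0 in the fit with input, and 8 to 18 when a replicate was left out. Over windows 24 were called, 70 by DESeq2 and 68 without a filter, and 10 to 29 when a replicate was left out. Members and member windows called were 0 under each of these alternatives. With TMM, which assumes that most windows do not differ, member windows above input were 5 in wild type and 7 in the knockout, against 67 and 65. Called input genes were 13, and 8 by DESeq2 and 6 with total-tag scaling.

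Same-numbered libraries of the 2 genotypes did not deviate together (correlations 0.00263, 0.00811 and -0.0088). H3K27ac and input libraries of the same number and genotype gave -0.0029 to 0.0158. As these were near 0 too, the measure cannot tell whether the numbers pair libraries. With the replicate block 15 genes were called, 13 of them shared with the fit without it, with 0 members and 0 member windows among the calls. Slc25a45 and Slc25a21 changed sign under the block (0.01 and -0.15).

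The cause of the other changes of sign was not tested. Without a filter Slc25a45 was at 0.001. Within 1 kb Slc25a5, Slc25a51 and Slc25a10 were at -0.04, 0.12 and -0.01, and beyond it Slc25a45 and Slc25a53 at 0.63 and -0.86. Without overlapping windows Slc25a45 and Slc25a17 were at 0.10 and -0.01. With input in the fit Slc25a45, Slc25a18, Slc25a39, Slc25a17, Slc25a3 and Slc25a22 were at 0.42, 0.0048, 0.21, -0.09, 0.53 and 0.59, Slc25a42 and Slc25a16 at 1.00 and 0.30, and Slc25a23 and Slc25a54, from -0.47 and -0.12, at 0.06 and 0.30. Leaving out a replicate gave -0.15 to 0.07 for Slc25a45, -0.46 to 0.55 for Slc25a21, -0.52 to 0.02 for Slc25a1, -0.70 to 0.68 for Slc25a4, -0.29 to 0.30 for Slc25a53, -0.11 to 0.22 for Slc25a5, -0.37 to 0.27 for Slc25a18, -0.18 to 0.05 for Slc25a39, -0.31 to 0.06 for Slc25a51, -0.46 to 0.01 for Slc25a26, -0.06 to 0.21 for Slc25a33 and -0.16 to 0.04 for Slc25a42. Few tags per window limit the faint members, whose SE reached 0.94.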
